A study of Mus musculus with 8 samples.

Results

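Livers that received the gene of liver X receptor alpha (LXRα) without an agonist were compared with livers that received the agonist T0901317 without that gene. The first group is called LXRα vehicle and the second GFP T0901317. Each held 2 of the 8 arrays in the series, and the 4 arrays were chosen by their titles alone. All 8 mice shared a C57B6 background, were 8 months old, and ate a Western diet for 12 weeks. Each had been given adeno-associated virus (AAV2.8) at 10 weeks of age, and a human thyroxine binding globulin promoter, which is specific to liver, drove the transgene. LXRα vehicle mice carried human LXRα and had vehicle injected into the peritoneum over 3 days. GFP T0901317 mice carried green fluorescent protein (GFP), the control transgene, and had T0901317 injected at 5 mg/kg over 3 days. The other 4 arrays, from GFP vehicle and LXRα T0901317 mice, entered the estimate of the spread and are given where they help to read a value. Total liver RNA of 1 mouse was hybridised to each Affymetrix array, so both transgene and drug differ between the groups compared.

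LXRα is a nuclear receptor that binds oxysterols and pairs with a retinoid X receptor on DNA. Its known targets in liver export sterols into bile and lipoproteins, turn cholesterol into bile acids in rodents, and drive fatty acid synthesis through SREBP-1c. Gene delivery raises the amount of receptor in hepatocytes and leaves its activation to the ligands present, whereas T0901317 activates the receptors present in every liver cell type. T0901317 also binds the pregnane X receptor, which governs drug metabolism genes. In homogenised liver, fewer cells of a type and less RNA per cell cannot be told apart.

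The control probe sets of the array separated the groups before any liver gene was considered. The ratio of 3' to 5' signal of β-actin, which rises as the 5' end of a transcript is lost, was 2.61 and 3.08 in LXRα vehicle and 7.56 and 11 in GFP T0901317. For Gapdh it was 1.16 and 1.14 against 2.92 and 5.12, and for the bacterial control dap 1.99 and 1.67 against 4.60 and 9.97. Groups did not overlap for any of these, and the exact two-sided permutation p was 0.333 for each, the smallest that 2 against 2 arrays allow. Array quality and the comparison cannot be told apart from these 4 arrays. LXRα T0901317, which entered the estimate of the spread, gave 2.75 and 36.3 for β-actin, 1.27 and 19.7 for Gapdh and 2.86 and 21.8 for dap. Its replicates differed by a median of 0.325 on the log2 scale, against 0.185 to 0.220 in the other groups. Arrays of a group correlated across probe sets with a Pearson r of 0.977 in LXRα vehicle and 0.978 in GFP T0901317, against 0.946 to 0.965 between the groups. Median intensity per array lay between 21.0 and 23.2 in the series.

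**Figure D1:**
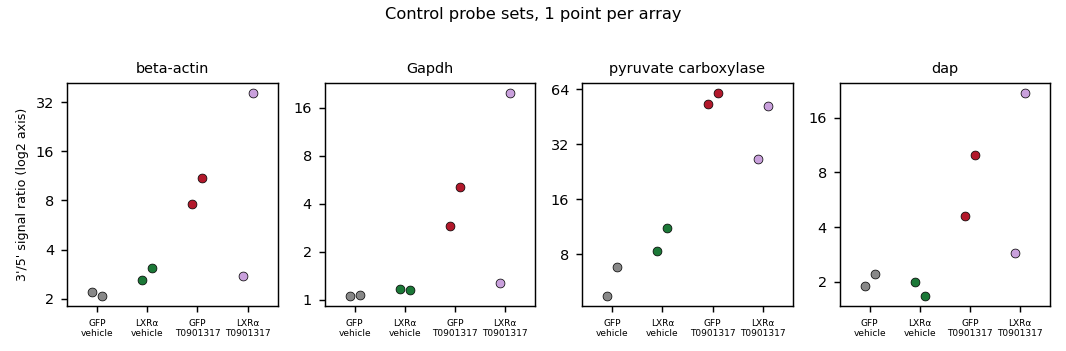
Ratio of 3' to 5' signal (log2 axis) of 4 control transcripts, 1 point per array, in the 4 groups. For every control the 2 GFP T0901317 arrays lie above the 2 LXRα vehicle arrays, and for β-actin they lie at 7.56 and 11 against 2.61 and 3.08.

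Of 15838 probe sets tested, 3 differed between the groups at a limma adjusted p under 0.05, or 0.0189% of all. One, of Hsd3b5, was higher in LXRα vehicle (0.00631%), and those of Zmynd8 and Eid1 were lower (0.0126%). At an unadjusted p under 0.05 there were 2769, where 792 would come by chance. Differences are given throughout as the log2 intensity of LXRα vehicle minus that of GFP T0901317, with limma's standard error (SE) and a p adjusted over all 15838. Having 2 mice a group limits the precision, and p-values measure the spread between these arrays alone. Over 9359 genes, each read at its brightest probe set, 1 was called higher and 1 lower (0.0107% each). Of these genes 4988 were higher in LXRα vehicle, and the median difference was 0.038, or -0.062 with each array centred on its median. After quantile normalization 9 probe sets were called, 1 higher and 8 lower.

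Hsd3b5, a hydroxysteroid dehydrogenase that is known from male mouse liver, rose from the lowest levels of the array to a strong signal. Intensities were 846 and 1079 in LXRα vehicle and 8.40 and 6.59 in GFP T0901317. The difference was 6.91 (SE 0.32, limma adjusted p = 0.00201), or 120-fold. In the dim group replicate 2 lay below the floor of 7.50 to which low intensities were raised, and replicate 1 lay just above it. The size of this fold thus rests on values near that floor. GFP vehicle, at 8.10 and 6.82, and LXRα T0901317, at 5.75 and 15, were as dim. Both LXRα vehicle arrays thus stood apart from the 6 others. The 250 bases before its RefSeq start (GRCm38.p6, chr3:98645535-98645784, minus strand) are shown because this gene carried the one higher call.
Hsd3b5: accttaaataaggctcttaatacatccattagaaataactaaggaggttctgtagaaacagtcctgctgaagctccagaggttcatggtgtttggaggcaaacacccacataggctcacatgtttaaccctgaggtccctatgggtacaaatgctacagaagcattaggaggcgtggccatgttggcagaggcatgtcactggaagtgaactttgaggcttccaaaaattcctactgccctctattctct
Neither AGGTCA, the half-site that receptor dimers of this family bind, nor TTCNNNGAA, the core of a STAT5 site, was found on either strand. Of 32851 RefSeq windows of this length, 14.0% hold the first and 7.02% the second.

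Zmynd8, a reader of chromatin marks, was lower, at 10.3 and 12.9 in LXRα vehicle and 105 and 87.8 in GFP T0901317. Its difference was -3.06 (SE 0.22, limma adjusted p = 0.0206), or 8.33-fold. GFP vehicle gave 17.9 and 17.8 and LXRα T0901317 gave 84.5 and 61.9, so the arrays with T0901317 stood above those without it. A probe set of Eid1, an inhibitor of the p300 acetyltransferase, gave 13.9 and 12.7 in LXRα vehicle and 53.4 and 47.5 in GFP T0901317, a difference of -1.93 (SE 0.16, limma adjusted p = 0.0393). The other Eid1 probe sets gave -1.51 and -0.78, limma adjusted p = 0.124 and 0.280. The LXRα vehicle values of Zmynd8 and of the called Eid1 probe set lay below every array's median intensity, the lowest of which was 21. The Eid1 call was lost with the replicate block. Alternatives were followed gene by gene at the brightest probe set only, which for Eid1 is not the called one. The Zmynd8 call was lost under 10 alternatives, at adjusted p between 0.0550 and 0.233, and the Hsd3b5 call without GFP T0901317 replicate 2, at an adjusted p of 0.0813.

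**Figure D2:**
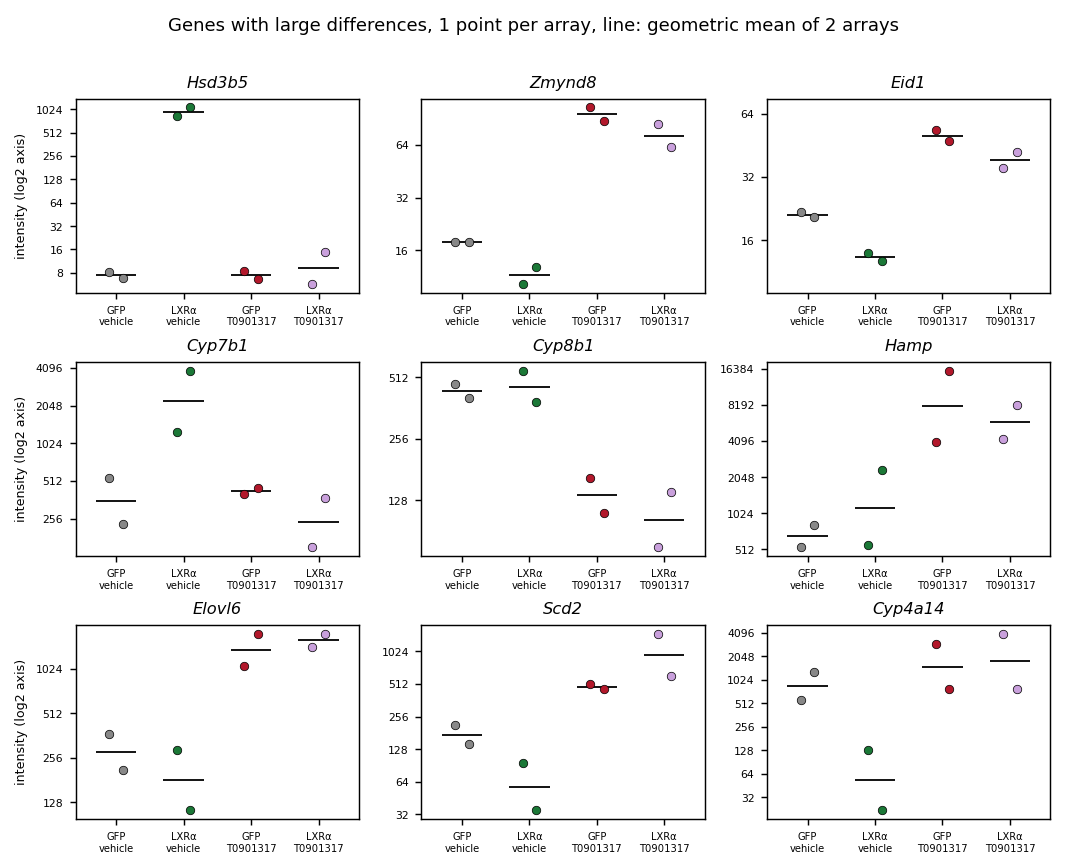
Deposited intensity (log2 axis) of 9 genes in the 4 groups, 1 point per array, with a line at the geometric mean of 2 arrays. The 3 called probe sets are in the top row, and Hsd3b5 lies at 846 and 1079 in LXRα vehicle against 15 or less elsewhere.

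The receptor genes were examined next. Mouse Nr1h3, which encodes LXRα, gave 183 and 218 in LXRα vehicle and 75.8 and 98 in GFP T0901317. The groups did not overlap and the difference was 1.21 (SE 0.45, limma adjusted p = 0.273). It is a probe set of the mouse gene, and nothing in the sources used here says if it sees the human transcript, so it checks no label. Rxra, the main retinoid X receptor of liver, gave 615 and 781 against 386 and 470, a difference of 0.70 (SE 0.38). Nr0b2 encodes SHP, the repressor that lowers bile acid synthesis. It gave 363 and 259 against 126 and 88.3, a difference of 1.54 (SE 0.32, limma adjusted p = 0.173). Over the 14 measured receptors, partners and coregulators, 7 were higher and 7 lower, with a median of 0.0098. Nr1i3, the constitutive androstane receptor, stood at 0.74 and Nrip1, a corepressor, at -1.06. None of the 14 was called.

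The LXR targets stood mostly lower with the delivered receptor than with the agonist, although no member passed. Of 17 measured, 16 were lower in LXRα vehicle, with a median of -0.72 against 0.038 over all genes. With the mean of each gene's probe sets 14 were lower, since Abca1 and Scd1 then stood higher at 0.89 and 0.16. At the brightest probe set 11 of the 17 were lower without overlap between the groups, where 23.9% of all genes were. Of the same 17, 1 was higher without overlap, where 34.2% of all genes were. At an unadjusted p under 0.05, 7 of the 17 were lower (8.8% of all genes) and 0 higher (7.22%). Leaving out 1 array at a time moved the list median between -0.97 and -0.55.

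Among the sterol exporters, Abcg5 and Abcg8 form the dimer that pumps sterols into bile, and their levels overlapped between the groups. Abcg5 gave 1509 and 790 in LXRα vehicle and 1710 and 1410 in GFP T0901317, a difference of -0.51 (SE 0.35, 95% interval -1.33 to 0.32). Abcg8 gave 355 and 247 against 386 and 325, a difference of -0.26 (SE 0.28, 95% interval -0.92 to 0.41). Both groups lay above GFP vehicle, where Abcg5 gave 484 and 448 and Abcg8 gave 126 and 107. The genes are head to head on chromosome 17, and the 109 bases between their RefSeq starts (GRCm38.p6, chr17:84683012-84683120, plus strand) are printed because the pair is known to be transcribed from this shared region.
Abcg5-Abcg8 intergenic: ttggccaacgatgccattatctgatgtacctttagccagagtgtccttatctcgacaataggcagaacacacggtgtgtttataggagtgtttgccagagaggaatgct
It holds neither AGGTCA nor TTCNNNGAA on either strand. Those motifs occur in 6.39% and 2.81% of the 32851 RefSeq windows of the same length.

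Among cholesterol efflux genes of the cell surface, none was called and the signs were mixed. Abca1, which loads apolipoprotein A-I with cholesterol, gave 1040 and 752 against 2047 and 1718, a difference of -1.08 (SE 0.26, limma adjusted p = 0.202). Its 2 dimmer probe sets gave 1.33 and 2.43 and the mean of all 3 probe sets 0.89, so the direction of Abca1 is not settled on this array. Abcg1, which passes cholesterol to mature high density lipoprotein, gave 210 and 228 against 348 and 344, a difference of -0.66 (SE 0.23, limma adjusted p = 0.271). Apoe, a ligand for lipoprotein uptake, was the 1 target that was higher, at 20855 and 22931 against 19585 and 16137 (0.30, SE 0.18). The groups did not overlap for these 3 probe sets.

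Cyp7a1, whose enzyme takes the first and limiting step from cholesterol to bile acids, showed a graded pattern. Intensities were 220 and 232 in LXRα vehicle and 713 and 543 in GFP T0901317. The difference was -1.46 (SE 0.30, limma adjusted p = 0.166), a 2.75-fold lower level with the delivered receptor. GFP vehicle gave 77.8 and 68.2, so the LXRα vehicle arrays lay between GFP vehicle and GFP T0901317 and overlapped neither. LXRα T0901317 gave 412 and 671, which overlapped GFP T0901317. A second Cyp7a1 probe set gave -0.90.

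Lipogenic targets differed by amounts that ran from nothing measurable to 3.68-fold. Fasn, the fatty acid synthase, gave 1074 and 480 in LXRα vehicle and 1945 and 3585 in GFP T0901317, a difference of -1.88 (SE 0.56, limma adjusted p = 0.244). Srebf1, the gene of SREBP-1, gave 2157 and 1989 against 3061 and 4037 (-0.76, SE 0.49, limma adjusted p = 0.425). GFP vehicle lay at 1575 and 644 for Srebf1, below both groups, whereas for Fasn it spanned 1643 and 659 and overlapped LXRα vehicle. Mlxipl, the carbohydrate response factor, differed by -0.72 (SE 0.32) and Scd1, the stearoyl-CoA desaturase, by -0.33 (SE 0.17). Scd1 was near 16489 and 13283 against 18774 and 18369, among the brightest signals of the array, and its other probe set gave 0.64. Lpcat3, which places polyunsaturated chains in phospholipids, differed by -0.038 (SE 0.35, 95% interval -0.86 to 0.78).

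Targets of lipoprotein remodelling and uptake split by where GFP vehicle lay. Rnf145, a ubiquitin ligase of the sterol sensing machinery, gave 94.1 and 79.4 in LXRα vehicle and 297 and 357 in GFP T0901317. Its difference of -1.91 (SE 0.24, limma adjusted p = 0.106) was the largest of the 17, and GFP vehicle, at 107 and 94.2, lay beside LXRα vehicle. Pltp, which transfers phospholipid between lipoproteins, gave 1505 and 821 against 3358 and 3604 (-1.65, SE 0.31, limma adjusted p = 0.149). Here GFP vehicle, at 3055 and 2888, lay beside GFP T0901317 instead. Lpl, which hydrolyses lipoprotein triglyceride, gave 1161 and 288 against 1987 and 1728 (-1.68, SE 0.58), with GFP vehicle at 1640 and 1440. Smpdl3a, Mylip and Apoc2 differed by -0.76, -0.58 and -0.30 (SE 0.38, 0.52 and 0.52), and the groups overlapped for Mylip and Apoc2.

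**Figure D3:**
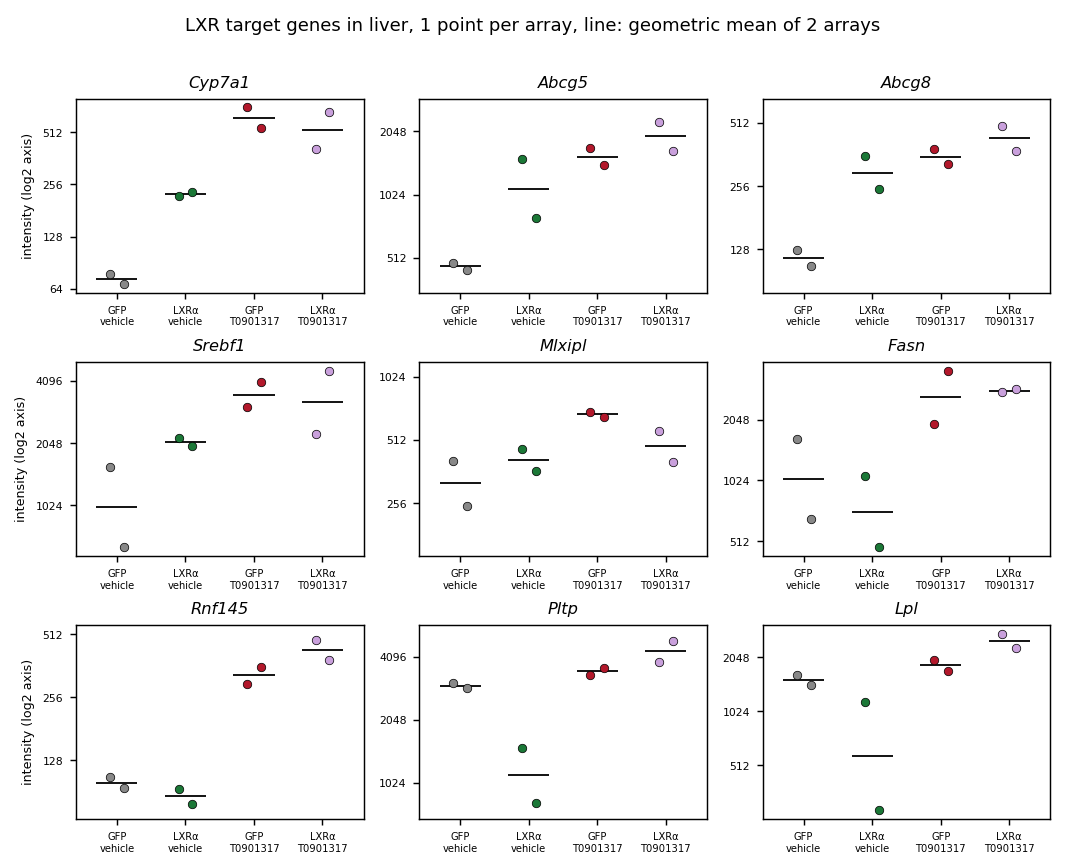
Deposited intensity (log2 axis) of 9 LXR targets in the 4 groups, 1 point per array, with a line at the geometric mean of 2 arrays. Cyp7a1 of LXRα vehicle (220 and 232) lies between GFP vehicle (77.8 and 68.2) and GFP T0901317 (713 and 543), Rnf145 lies beside GFP vehicle, and Pltp lies below both.

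Each treatment can also be set against GFP vehicle, although both contrasts then share those 2 arrays and are not independent. limma called 1 probe set for the transgene, that of Hsd3b5 (0.00631%), and 0 for the drug (0.0%), with 816 and 2083 at an unadjusted p under 0.05. The β-actin 3'/5' ratio was 2.21 and 2.08 in GFP vehicle, 2.61 and 3.08 in LXRα vehicle and 7.56 and 11 in GFP T0901317. Array quality and drug thus cannot be told apart in the drug contrast. Among genes with more than 1 tested probe set, 56.0% had opposite signs for the drug and 43.7% for the transgene. For Cyp7a1 the transgene difference was 1.63 (SE 0.30) and the drug difference 3.09 (SE 0.30). For Abcg5 these were 1.23 and 1.74, for Abcg8 1.35 and 1.61, and for Srebf1 1.04 and 1.80. Rnf145 stood at -0.22 for the transgene and 1.69 for the drug, and Fasn at -0.54 and 1.34. Abca1 stood at 0.081 and 1.17, but its dimmer probe sets gave -1.18 and -2.43 for the drug, so that direction is not settled either. Pltp and Lpl had the reverse arrangement, with -1.42 and -1.41 for the transgene against 0.23 and 0.27 for the drug, and their other probe sets gave -0.22 and -0.64 for the drug. The 17 targets had a median of -0.11 with the transgene and 0.46 with the drug.

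**Figure D4:**
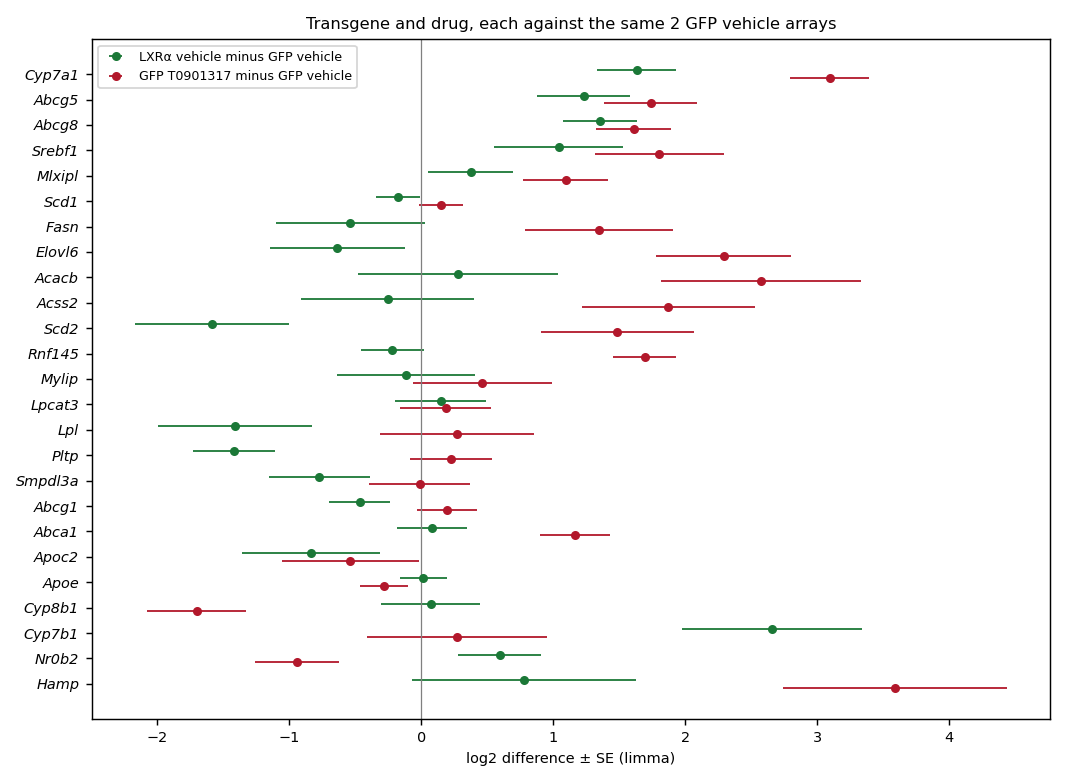
log2 difference ± SE (limma) of LXRα vehicle (green) and GFP T0901317 (red) from the same 2 GFP vehicle arrays, for 25 genes in rows. Cyp7a1, Abcg5, Abcg8 and Srebf1 lie right of 0 in both colours, Fasn, Elovl6 and Scd2 left of 0 in green and right of 0 in red, and Cyp8b1 is near 0 in green at 0.072 and at -1.70 in red.

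Fatty acid and triglyceride synthesis, beyond the targets above, held several of the largest differences. Elovl6, which lengthens palmitate to stearate, gave 289 and 113 in LXRα vehicle and 1074 and 1766 in GFP T0901317, a difference of -2.93 (SE 0.51, limma adjusted p = 0.149). Scd2, a second desaturase, gave 95.1 and 35.0 against 514 and 456 (-3.07, SE 0.58, limma adjusted p = 0.149). The other probe set of Scd2 gave -1.50 (SE 1.53). Acacb, the acetyl-CoA carboxylase that faces mitochondria, differed by -2.30 (SE 0.76) and Acss2, which makes acetyl-CoA from acetate, by -2.13 (SE 0.65). None of these 4 overlapped between the groups. Of 26 measured members 18 were lower and 8 higher, 0 were called, and the median was -0.52. The groups did not overlap for 11 lower members (23.9% of all genes) and 2 higher ones (34.2%). With the mean of probe sets 15 were lower. Without LXRα vehicle replicate 2, the lower of its pair for all 4 genes named, the list median was -0.09. Without replicate 1 it was -1.01. The 250 bases before the RefSeq start of Elovl6 (GRCm38.p6, chr3:129532136-129532385, plus strand) are given as the widest gap of this pathway after Scd2, with the nuclear receptor half-site in capitals.
Elovl6: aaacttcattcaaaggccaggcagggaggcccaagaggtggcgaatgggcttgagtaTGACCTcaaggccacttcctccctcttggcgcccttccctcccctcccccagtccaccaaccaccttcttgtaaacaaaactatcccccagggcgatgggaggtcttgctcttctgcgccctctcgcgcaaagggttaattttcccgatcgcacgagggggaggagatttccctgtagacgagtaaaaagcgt
The half-site reads TGACCT on this strand, which is AGGTCA on the other, and begins 193 bases before the start. TTCNNNGAA was not found.

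Among bile acid genes, most stood higher in LXRα vehicle, with exceptions in both synthesis and transport, and none was called. Cyp8b1, which sets the share of cholic acid, gave 551 and 385 in LXRα vehicle and 164 and 111 in GFP T0901317, a difference of 1.77 (SE 0.38, limma adjusted p = 0.179). Its GFP vehicle levels were 472 and 406, so the GFP T0901317 arrays were the ones that stood apart. Cyp7b1, of the alternative oxysterol pathway, gave 1267 and 3895 against 399 and 453 (2.39, SE 0.68, limma adjusted p = 0.231). GFP vehicle lay at 539 and 230 for Cyp7b1, so here LXRα vehicle stood apart. Slco1b2 and Slco1a1, uptake carriers of the sinusoidal membrane, stood higher too. Slco1b2 gave 8117 and 6120 against 3353 and 2792 (1.20, SE 0.23), and its 3 other probe sets gave 0.04 to 3.11. Slco1a1 gave 578 and 321 against 178 and 6.45, the last below the floor, and its difference of 3.56 (SE 1.55) became 1.28 without GFP T0901317 replicate 2. The 6 lower members included Cyp7a1 at -1.46. Abcc2, an exporter of the canalicular membrane and another of the 6, gave 656 and 433 against 1339 and 1473 (-1.40, SE 0.31). The other 14 of 20 members were higher. Of all 20, 12 were higher without overlap (34.2% of all genes) and 4 lower without overlap (23.9%). The median was 0.35, and 0.18 without LXRα vehicle replicate 1.

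Fatty acid oxidation genes, many under the receptor PPARα, had 12 of 26 higher and a median of -0.085. That median was 0.18 without LXRα vehicle replicate 2, 0.097 without GFP T0901317 replicate 1 and -0.28 without LXRα vehicle replicate 1, so its sign rested on single arrays. Cyp4a14, a microsomal fatty acid hydroxylase, had the largest negative difference of all genes ranked. It gave 128 and 21.9 in LXRα vehicle and 2939 and 783 in GFP T0901317 (-4.84, SE 1.13, limma adjusted p = 0.197). GFP vehicle lay at 559 and 1304, and arrays of one group differed widely for this gene. Ehhadh, of the peroxisomal pathway, gave 1366 and 451 against 4182 and 2548 (-2.06, SE 0.59). Pdk4, a brake on glucose oxidation, differed by -1.55 (SE 0.64). Acaa2, of mitochondrial oxidation, stood at 0.53.

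Hepcidin, the liver hormone that limits iron export, stood lower in LXRα vehicle without passing the test. Hamp gave 553 and 2356 against 4039 and 15783 in GFP T0901317, a difference of -2.81 (SE 0.85, limma adjusted p = 0.248). Hamp2, its near copy, gave 183 and 111 against 820 and 1424 (-2.92, SE 0.80), and probe sets of the 2 genes may share RNA. GFP vehicle, at 536 and 822 for Hamp, lay near LXRα vehicle. Smad7 and Id1, targets of the bone morphogenetic protein signal that also drives Hamp, differed by -2.17 (SE 0.38) and -2.24 (SE 0.69). Of 12 iron genes 11 were lower, 6 without overlap (23.9% of all genes), and the median was -0.49. With the mean of all probe sets of a gene 7 were lower and that median was -0.11.

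Male-biased liver genes, known to follow the pulses of growth hormone in males, were mostly higher in LXRα vehicle. Of 12 measured 11 were higher, 7 without overlap (34.2% of all genes), and the 1 lower member lay apart too (23.9%). The median was 1.13, and 0.64 without LXRα vehicle replicate 1. Hsd3b5 was the 1 called (0.00631% of all probe sets). C8b, a complement component, gave 741 and 1662 against 240 and 504 (1.68, SE 0.48), and Ugt2b38, a glucuronosyltransferase, differed by 1.40 (SE 0.55). Female-biased genes had a median of 0.21 over 8 measured, 5 of them higher. It was -0.29 with the mean of probe sets, when 4 were higher, and -0.012 and 0.018 without GFP T0901317 replicates 2 and 1, so it has no settled sign. Ghr, the growth hormone receptor, gave 2722 and 3427 against 1608 and 854 (1.38, SE 0.32, limma adjusted p = 0.197), and 0.33 and 3.89 at its other probe sets. Igfals, which stabilises IGF-1 in blood, gave 154 and 243 against 90.1 and 75.3 (1.23, SE 0.36), and Igfbp3, made by nonparenchymal cells, gave 99.9 and 101 against 377 and 183 (-1.39, SE 0.38). Igf1 itself stood at 0.54 (SE 0.30). Eif2s3y of the Y chromosome, looked up after these values were seen, gave 85.1 to 176 on the 8 arrays and Xist 8.16 to 10.0, so no array differed from the others in those signs of sex.

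Of chaperones and stress genes of the endoplasmic reticulum, 13 of 19 stood higher in LXRα vehicle and none was called. Sdf2l1, a chaperone cofactor, gave 212 and 455 against 76.9 and 38.5 (2.51, SE 0.69, limma adjusted p = 0.224). Manf, a secreted stress protein, gave 1465 and 1644 against 577 and 821 (1.17, SE 0.39), and Pdia4, a disulfide isomerase, gave 359 and 434 against 159 and 209 (1.12, SE 0.25). GFP vehicle, at 313 and 156 for Sdf2l1 and 1536 and 1197 for Manf, lay near LXRα vehicle. Of all 19, 11 were higher without overlap (34.2% of all genes) and 0 lower without overlap (23.9%). The list median was 0.48, but 0.20 without LXRα vehicle replicate 2 and 0.77 without replicate 1.

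Detoxification genes differed in sign among themselves, and none was called. Gstm3, a glutathione transferase, gave 263 and 87.2 in LXRα vehicle and 1177 and 810 in GFP T0901317 (-2.69, SE 0.74, limma adjusted p = 0.222). GFP vehicle, at 2672 and 984 for Gstm3, lay above LXRα vehicle and overlapped GFP T0901317. Gstm1 gave 2508 and 756 against 4104 and 3248 (-1.41, SE 0.54). These transferases are near copies and may share signal. Of 23 glutathione and NRF2 genes 15 were lower, with a median of -0.47. Of all 23, 8 were lower without overlap (23.9% of all genes) and 4 higher without overlap (34.2%). Cyp3a11, the classic target of the pregnane X receptor, gave 5091 and 614 against 5097 and 4158, so that 1 LXRα vehicle array was low and the difference was -1.38 (SE 0.85). The drug metabolism list had a median of -0.45, with 13 of 18 lower. Of all 18, 2 were lower without overlap (23.9% of all genes) and 4 higher without overlap (34.2%). Without LXRα vehicle replicate 2 the medians were 0.12 for glutathione genes and 0.039 for drug metabolism, and without replicate 1 they were -1.15 and -0.82. Leaving out GFP T0901317 replicate 1 or 2 put drug metabolism at -0.19 or -0.68.

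**Figure D5:**
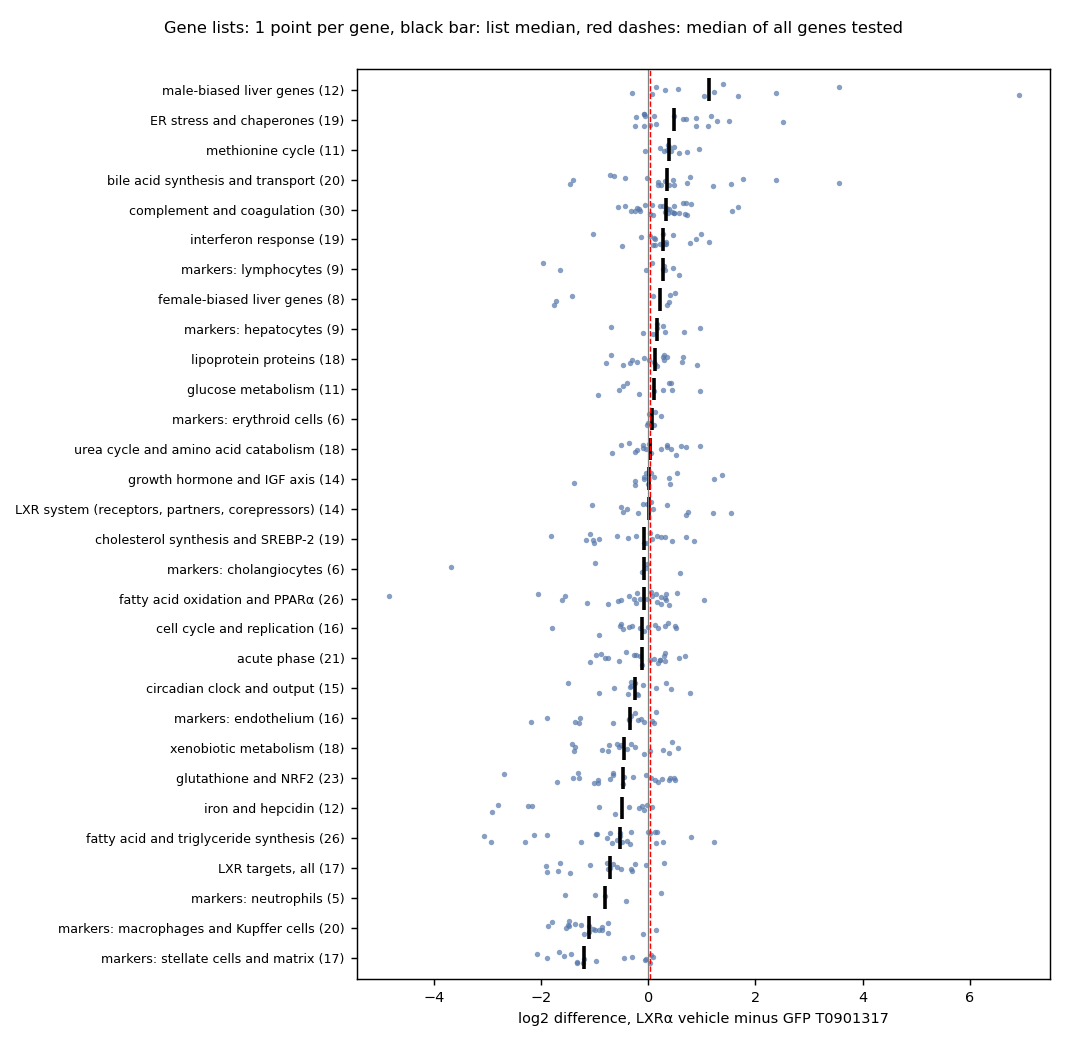
log2 difference between LXRα vehicle and GFP T0901317 for every measured gene of 30 lists (rows, number of genes in brackets), with a black bar at each list median and red dashes at 0.038, the median of all genes. Male-biased genes lie farthest to the right, at a median of 1.13, and macrophage and matrix markers farthest to the left, at -1.10 and -1.20.

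Markers of macrophages, matrix cells and endothelium stood mostly lower in LXRα vehicle, beside every list above, and none was called. Of 20 measured macrophage and Kupffer cell markers 19 were lower, 9 without overlap (23.9% of all genes), with a median of -1.10. Their summed intensity was 12960 and 5290 in LXRα vehicle and 12762 and 21801 in GFP T0901317, ranges that overlapped. Fcer1g, a signalling chain of Fc receptors, gave 64.0 and 26.7 against 106 and 192 (-1.79, SE 0.48), and Mpeg1, a pore-forming protein of macrophages, gave 585 and 326 against 830 and 1299 (-1.25, SE 0.36). Cd68, a lysosomal marker, was below the floor on LXRα vehicle replicate 2, at 6.85, and at 64.3 on replicate 1. Clec4f, another of these markers, gave 381 and 279 against 295 and 417 (-0.11, SE 0.32), so its groups overlapped. C1qa was the 1 higher member, at 0.15 (SE 0.85), also with overlap. The macrophage median was -0.37 without LXRα vehicle replicate 2 and -1.89 without replicate 1, and -1.56 and -0.66 without GFP T0901317 replicates 1 and 2.

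Stellate cell and matrix markers had a median of -1.20, with 14 of 17 lower. Of all 17 markers, 11 were lower without overlap (23.9% of all genes). Their summed intensity was 4214 and 5646 against 7609 and 7149. Lum, a matrix proteoglycan, gave 13.7 and 8.71 in LXRα vehicle and 54.6 and 29.6 in GFP T0901317 (-1.88, SE 0.32, limma adjusted p = 0.144). Its LXRα vehicle values lay below every array's median intensity, the lowest of which was 21. Dcn, another, gave 424 and 374 against 973 and 1035 (-1.33, SE 0.30), and Col4a2, of basement membranes, gave 44.3 and 44.8 against 133 and 93.2 (-1.32, SE 0.28). GFP vehicle lay at 31.5 and 30.6 for Lum and 849 and 708 for Dcn, nearer to GFP T0901317. The median was -0.50 without GFP T0901317 replicate 1, and -0.76 with the mean of probe sets.

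Endothelial markers had a median of -0.34, with 13 of 16 lower, and summed to 2143 and 1229 against 2408 and 2284. Omitting LXRα vehicle replicate 1 or 2 put the median at -0.65 or -0.19, and omitting GFP T0901317 replicate 1 or 2 put it at -0.15 or -0.52. Lyve1, a hyaluronan receptor of sinusoids, gave 56.9 and 31.2 against 268 and 137 (-2.18, SE 0.41, limma adjusted p = 0.149), and Cdh5, of endothelial junctions, gave 52.5 and 20.9 against 116 and 131 (-1.89, SE 0.51). Hepatocyte markers had a median of 0.16 over 9 measured (0.10 to 0.30 on leaving out 1 array), and their sum of 114650 and 105940 lay above 96143 and 86587. Alb differed by 0.28 (SE 0.18). Neutrophil, cholangiocyte and erythroid markers had medians of -0.81, -0.082 and 0.062 over 5, 6 and 6 measured. The neutrophil median rested on single arrays, at -0.0012 without GFP T0901317 replicate 2 but -1.52 when LXRα vehicle replicate 2 was omitted and -0.28 when replicate 1 was. On leaving out 1 array the cholangiocyte and erythroid medians ran from -0.26 to -0.051 and from 0.0081 to 0.15. The part of cell composition in the differences of other lists was not tested.

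Among the remaining genes ranked, 11 higher ones besides Hsd3b5 had adjusted p between 0.149 and 0.231 and 11 lower ones besides Zmynd8 between 0.124 and 0.222. Ly6d, a surface protein of epithelia, gave 18.2 and 22.6 against 175 and 389 in GFP T0901317 (-3.68, SE 0.53, limma adjusted p = 0.124), and GFP vehicle lay higher still at 1051 and 476. Fabp5, a carrier of fatty acids, gave 402 and 476 against 1372 and 3692 (-2.36, SE 0.58), both above GFP vehicle at 92.5 and 181. Slc22a7, an organic anion carrier, gave 279 and 784 against 60.4 and 167 (2.22, SE 0.61). The brightest probe set of Hnrnpab, an RNA binding protein, gave 2390 and 2023 against 581 and 200 (2.69, SE 0.49), but its 6 others gave -0.036 to 0.69. Of 3279 genes with more than 1 tested probe set, 1682 (51.3%) had probe sets of opposite sign in this comparison, and for 10 they passed 1 on the log2 scale both ways.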

How the data were processed

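Liver RNA was measured on Affymetrix mouse arrays, 1 per mouse per the labels. The deposited table gives 1 linear intensity per probe set and array, as the authors made it. For probe summary and scaling, no method is given in the sources used here. A further feature of the mice, the same in all groups, and 1 listed gene are not reported here. Groups come from the titles, and the members and gene lists (34 lists, 558 genes) were chosen with earlier results of these data known. No list was tested.

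The table has 22690 probe sets, 64 of them controls. The platform's probe table names 1 gene for 20380, several for 691 and none for 1555, and 20351 names were brought up to date through RefSeq (GRCm38.p6). Values under 7.50, the 20th percentile, were set to it before taking log2. The deposited scaling stayed, since array medians spanned 0.141 on the log2 scale (tolerance 0.2). limma 3.58.1 (R 4.3.3) tested the 15838 probe sets whose mean passed the 30th percentile. Its model held a mean for each of 4 groups over all 8 arrays, with 4 residual degrees of freedom, 2.93 prior ones and a trend of variance with intensity. P-values were adjusted by Benjamini-Hochberg and called under 0.05, and come from limma unless an exact permutation test is named. Steps were tested on simulated data.

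Each gene is read at the brightest tested probe set that names it alone (x_at sets last). Genes named are the receptors and LXR targets, the called genes, the 12 largest differences each way among 369 genes at an unadjusted p under 0.01 without overlap, up to 4 members of each list by p, and Alb. Cd68, Clec4f, C1qa and the sex chromosome genes were chosen after their values were seen. Summed intensities add the measured members of a list. Sequences are RefSeq windows before each gene's start. Alternatives were quantile normalization, median centring, a 5th percentile floor (4.59), an added 16 in place of a floor, other filters (none, 50th percentile), limma without the trend or with robust spread, a replicate block, the 4 arrays alone, β-actin ratio (log2) in the model, a threshold of 0.10, averaging a gene's probe sets, and omitting each array or the LXRα T0901317 group. An array whose partner was omitted took its spread from the other groups.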

Additional observations from a re-analysis of the deposited data

Results flagged for a closer look

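The 3'/5' ratios of control probe sets, which no comparison of genes uses, were above every vehicle array in both GFP T0901317 livers. For Gapdh they were 2.92 on replicate 1 and 5.12 on replicate 2, against 1.16 and 1.14 in LXRα vehicle. For pyruvate carboxylase they were 53.0 and 60.5, against 8.34 and 11.2. For dap, a bacterial transcript used as a spiked control, they were 4.60 and 9.97, against 1.99 and 1.67. The 18S ribosomal control gave 23.9 and 11.8 in GFP T0901317 and 245 and 488 in LXRα vehicle. It gave 45.3 and 33.8 in LXRα T0901317 and 638 and 302 in GFP vehicle, so every array with T0901317 lay below every array without it. Their part in the differences between liver genes was not tested, beyond a fit with the log2 β-actin ratio as a covariate. In that fit 4 list medians moved past the spread between replicates and 27 did not, that of all genes included.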

How the results depend on the processing

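With 2 arrays a group, limma called 3 probe sets. The count was 9 (1 higher, 8 lower) after quantile normalization, 14 (11 higher, 3 lower) without a filter, 5 with the filter at the 50th percentile, 6 without the intensity trend, 9 without the LXRα T0901317 group, 5 at an adjusted p under 0.10 and 1 when the β-actin ratio entered the model. Leaving out 1 array gave 0 to 11 calls, with 0 without GFP T0901317 replicate 2 and 10 and 11 without either LXRα T0901317 array. With the replicate block it was 1, Hsd3b5. Deviations of same-numbered arrays from their group means had a correlation of 0.0443 between the compared groups. That single value over all tested probe sets cannot exclude a pairing that touches some genes. The median log2 level of acute phase genes was higher on replicate 2 in every group. It was 11.1 and 12.1 in LXRα vehicle, 11.7 and 12.2 in GFP T0901317, and 10.2 and 11.5 in GFP vehicle. Other lists did not all do so, and pairing was not tested further. Leaving out 1 array moved the bile acid median between 0.18 and 0.47 and the matrix median between -1.47 and -0.50.

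Of single genes' values under these settings, 2217 kept direction and side of the threshold, 12 moved, 11 lost their call and 13 reversed. With the mean of probe sets Abca1 was at 0.89, Mcm3 at 0.12, Mcm7 at 0.11, Scd1 at 0.16 and Srxn1 at 0.48, and Lpcat3 was at 0.043 after quantile normalization. Leaving out 1 array gave -0.52 to 0.0052 for Abcg8, -0.91 to 0.31 for Apoc2, -2.91 to 0.15 for Cyp3a11, -0.41 to 0.33 for Lpcat3 and -1.29 to 0.14 for Mylip. It gave medians of -0.10 to 0.036 for LXR receptors and partners, -1.15 to 0.12 for glutathione genes and -0.14 to 0.036 for the cell cycle. Median centring put LXR receptors and partners at -0.091, erythroid markers at -0.039 and all genes at -0.062. The mean of probe sets put LXR receptors and partners at -0.047 and the cell cycle at 0.11, and the filter at the 50th percentile put all genes at -0.063. The cause was not tested.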

Other observations

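Clock output and cell cycle genes were not described above. Hlf, a clock output factor, gave 63.1 and 87.4 in LXRα vehicle and 355 and 124 in GFP T0901317 (-1.50, SE 0.70, limma adjusted p = 0.313). Its other probe set gave -0.40 (SE 0.41), and leaving out 1 array moved the first value between -2.26 and -0.74. Per2, a clock repressor, overlapped between the groups (-0.92, SE 0.46). Of 15 clock genes 11 were lower, with a median of -0.24. Ccnd1, the cyclin of entry into the cycle, gave 103 and 42.6 against 165 and 322 (-1.80, SE 0.47), and LXRα T0901317 lay higher at 671 and 693. The 16 cell cycle genes had a median of -0.12, with 6 higher, and 0.11 with 9 higher by the mean of probe sets.

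Genes of the methionine cycle were mostly higher in LXRα vehicle, 10 of 11 with a median of 0.39. Sardh, of sarcosine breakdown, gave a difference of 0.94 (SE 0.34, limma adjusted p = 0.273), and Bhmt, which remethylates homocysteine, gave 0.57 (SE 0.25). Complement and coagulation genes had 22 of 30 higher, with a median of 0.33. Beside C8b, the members named for their small p were Serpind1 at 0.79, Plg at 0.68 and Serpinc1 at 0.65. Without LXRα vehicle replicate 2 the median of the complement and coagulation list was 0.11, and without replicate 1 it was 0.54. Interferon genes had 16 of 19 higher, with a median of 0.27, but it was -0.0067 without LXRα vehicle replicate 1 and 0.65 without replicate 2. Cholesterol synthesis genes had 8 of 19 higher and a median of -0.073, which ran from -0.36 to 0.11 on leaving out 1 array. Among these Mvk stood at 0.71, Hmgcs1 at -1.01, Dhcr7 at -1.03 and Idi1 at -1.15, while another probe set of Mvk gave -0.34. Lymphocyte markers had a median of 0.27 over 9 measured, but most were dim. Their median log2 level was 4.82 and 4.76 in LXRα vehicle and 4.26 and 4.46 in GFP T0901317, against 5.80 to 6.01 over all genes. Ptprc, shared by all leukocytes, stood at -1.97 (SE 0.51) and Cd4 at 0.46 (SE 0.22).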
